A study of Mus musculus with 5 samples.

Results

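Axons and migrating neurons are steered by secreted and membrane-bound cues that are read by receptors on the growth cone. Ephrins bind Eph receptor tyrosine kinases, semaphorins bind plexins and neuropilins, Slits bind Robo receptors, and netrins bind Dcc, neogenin and the Unc5 receptors. In the developing cerebellum, Cxcl12 and its receptor Cxcr4 hold granule neuron precursors at the surface, and reelin, through the adaptor Dab1, places Purkinje cells. Gfi1 is a zinc finger repressor, and Lsd1 is the histone demethylase that it recruits.

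The genes described here are the 75 protein-coding genes of these families among 21938 in GENCODE M21. They are the ephrins, Eph receptors, semaphorins, plexins, neuropilins, Slit and Robo genes, netrins and Unc5 receptors, chosen by symbol, and 7 listed genes, Dcc, Neo1, Cxcl12, Cxcr4, Ackr3, Reln and Dab1. Of these, 37 encode ligands, 37 encode receptors and Dab1 encodes an adaptor. The choice used no measured value.

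Gfi1 and Lsd1 were each immunoprecipitated with a rabbit polyclonal antibody from tumors 39 and 41, giving 4 ChIP-seq libraries, 2 per factor. Both tumors are MG medulloblastomas of adult mice, grown in NSG hosts from cerebellar neural stem cells of C57BL/6 pups 5 to 7 days old that were infected with retroviruses for Myc and Gfi1. Every library thus comes from cells with forced Myc and Gfi1, and there is no tumor without Gfi1 and no normal cell beside them. The question was where Gfi1 and Lsd1 lie in the genome and whether they lie at the same places. The only input sample came from pooled MGB (Myc/Gfi1b) tumors and was not analysed here. No expression is measured in these libraries, so that the labelled tissue could not be checked by its markers, and a peak tells nothing of the level of the gene.

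The deposited lists held 36836 Gfi1 peaks in tumor 39 and 25078 in tumor 41, and 30367 and 33213 Lsd1 peaks. They carry no read counts, so that the depth behind a peak is unknown. Each peak has a score, which was used only as its percentile, the share of the peaks in its list that score at or below it. A gene was counted as bound when a peak came within 1 kb of any of its transcription start sites (TSSs), and its value is the percentile of the highest such peak. The scores are tied near the top of the range, at 3100, for 805 peaks of the Gfi1 list of tumor 39, 12 of tumor 41, and 113 and 419 of the Lsd1 lists. All 805 share the percentile 99.7, so that order among them cannot be read.

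The genes with the highest percentiles were Epha7, a receptor for ephrin-A ligands that act on retinal and cortical axons, Plxnb1, the receptor for the semaphorin Sema4d, and Efna1, a membrane-anchored ephrin. The 250 bases before their starts are shown because peaks of all 4 lists covered 100% of each. The promoter of Nrp1, a neuropilin, is set beside them because 0% of it lay in a peak of any list, and it was chosen after its values were seen. All are from the RefSeq table for GRCm38.p6 (mm10), 5′ to 3′ on the strand of the gene. Capitals mark AATC, the core of the sequence that Gfi1 is known to bind, on either strand, so that GATT is the same core on the other strand.
Epha7, chr4:28812881-28813130, plus strand: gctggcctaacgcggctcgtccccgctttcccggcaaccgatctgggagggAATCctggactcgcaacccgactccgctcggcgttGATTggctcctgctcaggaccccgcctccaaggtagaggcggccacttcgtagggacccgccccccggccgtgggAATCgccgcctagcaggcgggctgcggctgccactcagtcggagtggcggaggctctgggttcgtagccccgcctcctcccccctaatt
Plxnb1, chr9:109095186-109095435, plus strand: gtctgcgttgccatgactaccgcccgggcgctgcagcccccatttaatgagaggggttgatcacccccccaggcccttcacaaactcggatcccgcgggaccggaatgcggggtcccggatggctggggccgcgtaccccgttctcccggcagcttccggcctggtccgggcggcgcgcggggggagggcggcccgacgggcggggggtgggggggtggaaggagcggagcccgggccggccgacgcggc
Efna1, chr3:89279646-89279895, minus strand: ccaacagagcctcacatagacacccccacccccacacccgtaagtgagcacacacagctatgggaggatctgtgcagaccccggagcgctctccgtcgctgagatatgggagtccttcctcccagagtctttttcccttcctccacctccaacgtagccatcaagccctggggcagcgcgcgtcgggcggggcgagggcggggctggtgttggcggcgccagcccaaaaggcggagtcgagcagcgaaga
Nrp1, chr8:128358823-128359072, plus strand: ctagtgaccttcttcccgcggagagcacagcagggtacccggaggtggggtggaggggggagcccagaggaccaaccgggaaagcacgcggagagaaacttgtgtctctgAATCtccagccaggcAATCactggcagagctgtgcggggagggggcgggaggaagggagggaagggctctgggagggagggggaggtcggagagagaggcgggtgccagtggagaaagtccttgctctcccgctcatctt

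The Epha7 promoter held 3 AATC matches and 25 CG pairs. Those of Plxnb1 and Efna1 held 0 AATC matches, with 30 and 18 CG pairs. The promoter of Nrp1, with no peak, held 2 AATC matches and 11 CG pairs. None of these held AAATCA, a longer part of the Gfi1 sequence, or CACGTG, the E-box that Myc is known to bind. Promoters were matched in RefSeq for 65 of the 75 genes, 82 promoters in all. AATC was in 53.7% of the 82 and in 66.9% of the 20150 promoters of coding genes of that length, AAATCA in 9.76% and 11%, and CACGTG in 6.1% and 6.78%. Of the 82 promoters, AATC was in 34 of the 58 at genes bound in all 4 libraries (58.6%) and in 10 of the other 24 (41.7%). AAATCA was in 7 (12.1%) and 1 (4.17%). The same split was not worked out for coding genes, and some genes gave several promoters, so that no difference can be read from these counts. The median number of CG pairs was 15.5 in the promoters of the axon guidance and migration genes and 10 in all. These matches are letters in a window, and binding to them was not measured.

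Most of the 75 genes were bound in each library. The number was 68 for Gfi1 in tumor 39 (90.7%, with 65.0% of all coding genes) and 52 in tumor 41 (69.3%, with 54.3%). For Lsd1 it was 56 in tumor 39 (74.7%, with 58.5%) and 67 in tumor 41 (89.3%, with 61.7%). All 4 shares were above those of coding genes in general. CpG-rich starts (an observed over expected ratio of CG pairs of 0.6 or more within 500 bp of a TSS) are common at housekeeping and developmental genes. Of the 75 genes, 59 had such a start (78.7%, against 52.5% of coding genes). Among the 11528 coding genes with a CpG-rich start, the shares with a peak were 97.1%, 85.3%, 89.6% and 93.6%, which is above the shares of all 75 genes in every library. No other coding gene starts within 1 kb of a TSS of any of the 75, whereas 13.9% of coding genes and 21.6% of CpG-rich genes have such a neighbour. Among CpG-rich genes without one they were 96.3%, 82.1%, 87.3% and 92.1%. The 59 of the 75 genes with a CpG-rich start can be set beside these, and 96.6%, 74.6%, 79.7% and 93.2% of them had a peak. Against CpG-rich genes without a close coding neighbour they were thus lower for Gfi1 in tumor 41 and Lsd1 in tumor 39, and slightly higher in the other lists.

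A TSS peak was present in all 4 libraries at 48 genes (64.0%). The background was 53.1% of coding genes, 84.6% of CpG-rich genes, 81.2% of CpG-rich genes with no close coding neighbour and 62.8% of genes at least as long as the median of the 75, 46.3 kb. Of the 59 genes with a CpG-rich start, 42 (71.2%) were bound in all 4 libraries. Among the 16 others 6 were (37.5%), namely Sema3b, Sema4a, Sema4f, Ntn3, Ntn5 and Robo2. The share among coding genes without a CpG-rich start was not worked out, so that these 16 have no matching background here. At 5 genes no list had a TSS peak (6.67%, against 33.6% of coding genes and 2.64% of CpG-rich genes). These were Epha8, Plxnb3, Nrp1, Robo4 and Dcc, all of them receptors. Plxnb3, Robo4 and Dcc were among the 16 genes whose start is not CpG-rich. Every one of the 37 ligands had a TSS peak in at least 1 library, and 26 had it in all 4, as did 22 of the 37 receptors.

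**Figure D1:**
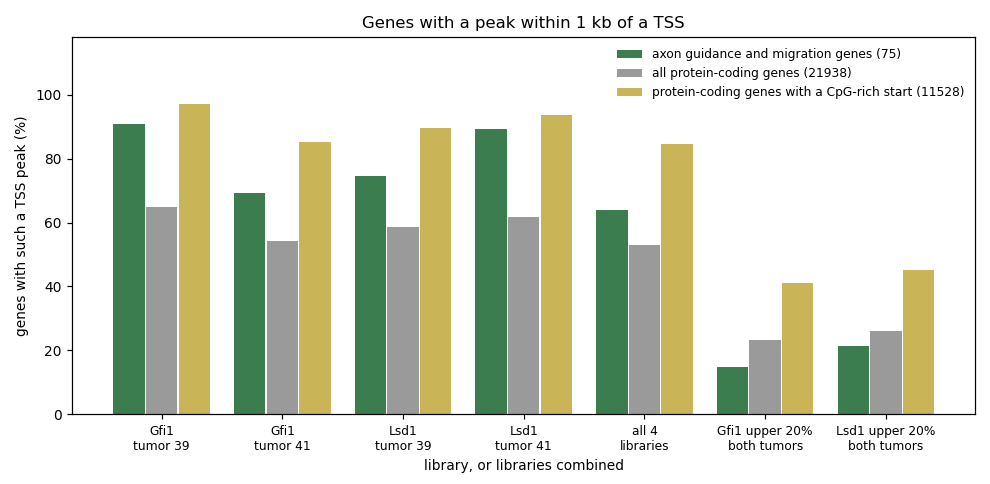
Bars give the percentage of genes with a peak within 1 kb of a TSS, by library and for libraries combined, for the 75 axon guidance and migration genes, all coding genes and coding genes with a CpG-rich start. In each single library the 75 genes stand between the other groups, and for the upper 20% in both tumors they stand below both, at 14.7% for Gfi1 and 21.3% for Lsd1.

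High-ranking peaks were less frequent. The study kept peaks in the upper 20% of enrichment that overlapped between the tumors. Its sets were larger than the upper 20% of these lists, so that they are not the sets counted here. Here a gene counted when its highest TSS peak was in the upper 20% of the score in each tumor, overlapping or not. By this measure 11 of the 75 genes had such TSS peaks for Gfi1 (14.7%) and 16 for Lsd1 (21.3%). The background for Gfi1 was 23.3% of coding genes, 41.2% of CpG-rich genes and 23.7% of long genes. For Lsd1 it was 26.1%, 45.2% and 28.6%. Of the 59 genes with a CpG-rich start, 11.9% had such a Gfi1 peak and 25.4% such an Lsd1 peak. Of the 16 others, 4 had such a Gfi1 peak and 1 such an Lsd1 peak. Only 8 genes were in the upper 20% of all 4 lists (10.7%, against 19.9% of coding genes and 35.1% of CpG-rich genes). They are Efna1, Ntn3, Sema4c and Sema6a among the ligands and Epha4, Epha7, Plxnb1 and Plxnb2 among the receptors. Of CpG-rich genes with no close coding neighbour, 29.4% were in the upper 20% of all 4 lists. The Gfi1 count rested on tumor 41. In the list of tumor 39 alone, 33 genes were in the upper 20% (44.0%, against 36.2% of coding genes, 63.9% of CpG-rich genes and 42.8% of long genes).

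Ephrins of class A are anchored in the membrane by a lipid and bind EphA receptors, and 4 of the 5 genes had a TSS peak in all 4 libraries. At Efna1 the Gfi1 percentiles were 99.7 in tumor 39 and 98.6 in tumor 41, and the Lsd1 percentiles were 98.5 and 97.0. Efna2 was the lowest of the class, with 52.0 for Gfi1 in tumor 39, no peak in tumor 41, and 88.6 and 61.2 for Lsd1. Its Lsd1 peak in tumor 39 was 21622 bp wide and lay almost wholly upstream, ending just past the start. Efna1, Efna3 and Efna4 lie side by side on chromosome 3 with gaps of 32.8 and 10.4 kb, and are not independent places. Ephrins of class B span the membrane and can signal into their own cell, and 2 of the 3 genes were bound in all 4 libraries. The highest, Efnb2, had Gfi1 percentiles of 95.1 and 60.4 and Lsd1 percentiles of 80.7 and 89.9. Efnb3 had 62.6 for Gfi1 in tumor 39, no peak in tumor 41, and 9.78 and 34.7 for Lsd1. At both genes Gfi1 was thus highest in tumor 39.

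Class 3 semaphorins are secreted and mostly repel axons through neuropilins and plexins. Of the 7 genes 5 had a peak in all 4 libraries, most of them low in their lists. Sema3b, a secreted member of the class, had 84.3 and 88.4 for Gfi1 in tumors 39 and 41, and 96.1 and 73.2 for Lsd1. Sema3b lies 72.3 kb from Sema3f, and its peaks were wide, 5432 to 13122 bp. Sema3g, the lowest, had 28.8 and 16.6 for Gfi1, 28.4 for Lsd1 in tumor 39 and no Lsd1 peak in tumor 41. Within the class, Sema3b alone had a Gfi1 peak in the upper 20% in both tumors, and the median Gfi1 percentile in tumor 41, with an absent peak as 0, was 17.8.

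Class 4 semaphorins are membrane proteins, several of which bind class B plexins. Of the 6 genes 5 were bound in all 4 libraries, and 3 were in the upper 20% for Lsd1 in both tumors. Sema4c, a ligand of Plxnb2, had Gfi1 percentiles of 99.7 and 93.3 and Lsd1 percentiles of 90.2 and 92.6. Sema4b had 86.8 and 79.0 for Gfi1 and 95.1 and 91.2 for Lsd1. Sema4d, the ligand of Plxnb1, had 88.4 and 70.7 for Gfi1 and 81.8 and 87.4 for Lsd1. These were high in every list, with Gfi1 lower in tumor 41 than in tumor 39. The lowest was Sema4g, with 61.7 and 9.30 for Gfi1, no Lsd1 peak in tumor 39 and 49.9 in tumor 41. Among semaphorins of classes 5 to 7, which are anchored in the membrane, 6 of the 7 genes were bound in all 4 libraries. Sema6a, a cue for migrating cerebellar granule cells, had 90.9 and 98.1 for Gfi1 and 86.4 and 99.8 for Lsd1, and was higher in tumor 41 for both factors. Sema5b had a Gfi1 peak at 68.3 in tumor 39 and an Lsd1 peak at 60.1 in tumor 41, with none in the other lists.

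Slit proteins are secreted repellents of the midline, and only Slit2 of the 3 genes was bound in all 4 libraries. Its Gfi1 percentiles were 80.4 and 75.2, and its Lsd1 percentiles 71.6 and 87.3. Slit3 had a Gfi1 peak at 46.9 in tumor 39, an Lsd1 peak at 12.2 in tumor 41 and nothing in the other lists. Slit1 had a peak in the same pair of lists. Netrins are laminin-like cues that attract or repel, and 3 of the 4 genes were bound in all 4 libraries. Ntn3, the highest, had 99.7 and 91.0 for Gfi1 and 94.2 and 98.1 for Lsd1. Ntn4 had 74.0 for Gfi1 in tumor 39, no peak in tumor 41, and 60.6 and 70.1 for Lsd1. Ntn1, the netrin of the midline, had 84.3 and 31.2 for Gfi1 and 54.9 and 88.8 for Lsd1. These peaks lie at internal TSSs 13.8 and 14.0 kb into the gene, where each factor was higher in a different tumor. At the most 5′ start only Gfi1 in tumor 39 had a peak, at 67.6. In a shared stretch 188 kb into the gene both factors were higher in tumor 41, with 68.4 and 81.3 for Gfi1 and 78.4 and 93.8 for Lsd1.

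Cxcl12, the chemokine of the meninges, had a Gfi1 peak at 45.3 in tumor 39 and an Lsd1 peak at 16.6 in tumor 41. Reln, the secreted reelin, had 60.1 and 67.7 in the same pair of lists. Neither had a peak for Gfi1 in tumor 41 or for Lsd1 in tumor 39.

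Among EphA receptors, 4 of 9 genes were bound in all 4 libraries (44.4%, against 53.1% of coding genes). Epha7 had 99.7 and 99.5 for Gfi1 and 98.7 and 98.0 for Lsd1. Epha4, which binds ephrins of both classes, had 89.1 and 86.6 for Gfi1 and 86.3 and 95.5 for Lsd1. Epha8 had no TSS peak in any list, although its start is CpG-rich, so that the family held both extremes. Of the 5 EphB genes 4 were bound in all 4 libraries. Ephb6, whose kinase is inactive, had 82.7 and 68.1 for Gfi1 and 82.5 and 84.9 for Lsd1, and Ephb4, known for its role in vessels, had 64.4 for Gfi1 in tumor 39, no peak in tumor 41, and 16.9 and 14.7 for Lsd1. Ephb2 showed a wide gap between the tumors for Gfi1, with 84.7 in tumor 39 and 11.0 in tumor 41, and had 28.0 and 39.3 for Lsd1.

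**Figure D2:**
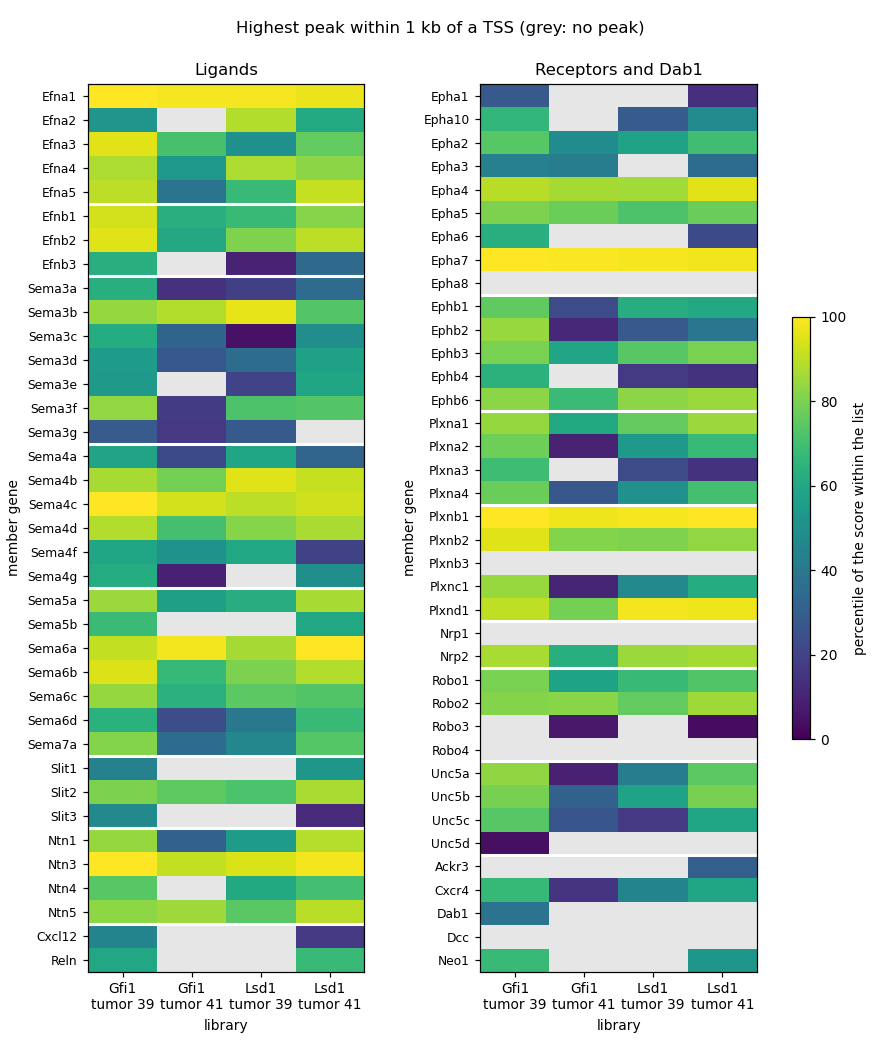
Each cell gives the score percentile of the highest peak within 1 kb of a TSS, in the 4 libraries, for the ligands and for the receptors with Dab1, and grey marks no peak. White lines part the families. Efna1, Ntn3, Epha7 and Plxnb1 are above 90 in every list, and the Gfi1 column of tumor 41 holds the most grey cells, 23.

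Plexins are the semaphorin receptors. Of the 4 class A genes 3 had a peak in all 4 libraries. Plxna1 had 84.2 and 60.8 for Gfi1 and 75.8 and 85.1 for Lsd1. Plxna3 had 69.0 for Gfi1 in tumor 39, no peak in tumor 41, and 22.8 and 14.6 for Lsd1. The 5 genes of classes B to D, which include the receptors of class 4 semaphorins, contrasted more. Plxnb1 had 99.7 and 97.4 for Gfi1 and 98.5 and 99.8 for Lsd1, and Plxnb2 had 95.2 and 81.4 for Gfi1 and 80.7 and 83.9 for Lsd1. Plxnd1, which binds Sema3e, had 90.5 and 79.2 for Gfi1 and 98.1 and 97.5 for Lsd1. The first of these is the peak at its most 5′ start, and the others lie at internal TSSs near the other end of the gene. At the most 5′ start the highest Gfi1 peak of tumor 41 was at 53.0 and the Lsd1 peaks at 90.8 and 95.5. Plxnb3 had no TSS peak in any list, and its start is CpG-poor, with an observed over expected ratio of 0.0990. Plxnb1, Plxnb2 and Plxnd1 were thus in the upper 20% for Lsd1 in both tumors, beside a class B gene with nothing.

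Neuropilins are coreceptors of class 3 semaphorins, and the pair of genes differed in every list. Nrp2 had 87.2 and 62.6 for Gfi1 and 85.0 and 86.4 for Lsd1, while Nrp1 had no TSS peak and no peak inside the gene. Both starts are CpG-rich, with ratios of 0.827 and 0.713. Inside Nrp2, just downstream of the start, Gfi1 also had peaks at 94.5 in tumor 39 and 81.7 in tumor 41. The highest Lsd1 peaks counted for the TSS, 901 and 881 bp from it, lay at the same place.

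Robo receptors read Slit, and 2 of 4 genes were bound in all 4 libraries. Robo2 had 81.5 and 82.3 for Gfi1 and 76.1 and 85.7 for Lsd1, so that Gfi1 was close to equal in the tumors, from a start just under the CpG-rich limit (0.580). Robo4, a receptor of endothelial cells, had no peak. It lies 0.554 kb from Robo3, which had low peaks of 6.75 for Gfi1 and 3.23 for Lsd1, both in tumor 41. These lie near different internal TSSs of Robo3, 3.11 and 10.6 kb from its most 5′ start, and are not a single place. Unc5 receptors mediate repulsion by netrins, and 3 of the 4 genes were bound in all 4 libraries. Unc5b had 79.4 and 31.1 for Gfi1 and 57.4 and 79.4 for Lsd1, and Unc5d had 3.96 for Gfi1 in tumor 39 alone.

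Of the listed receptors, Dcc, the attractive netrin receptor, had no TSS peak in any list and no peak inside the gene, which spans 1097 kb. Neo1, the related neogenin, had a Gfi1 peak at 67.8 in tumor 39 and an Lsd1 peak at 52.8 in tumor 41. Cxcr4 was the only listed gene bound in all 4 libraries, with 67.0 and 15.2 for Gfi1 and 45.3 and 58.9 for Lsd1. Ackr3, the scavenging receptor of Cxcl12, had 30.1 for Lsd1 in tumor 41 alone. Dab1, the adaptor of reelin signaling, had a TSS peak for Gfi1 in tumor 39 alone. Its value of 38.1 is at internal TSSs 748 kb into the gene, and the peak at the most 5′ start was at 31.9. Inside Dab1, away from TSSs, tumor 41 had Gfi1 peaks at 15.1 and 26.4 and Lsd1 peaks at 24.4 and 38.7. None of the listed genes was in the upper 20% of any list.

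The factors were compared over the 4 libraries. The number of genes with a TSS peak was 60 ± 11.3 for Gfi1 and 61.5 ± 7.78 for Lsd1 (SD, n = 2), a difference of -1.5 that was smaller than the spread between tumors (two-sided exact permutation test, p = 1). It averages a difference of 12 in tumor 39 and -15 in tumor 41. Over the 48 genes bound in all 4 libraries, the median Gfi1 percentile was 84.2 in tumor 39 and 59.5 in tumor 41. The median Lsd1 percentile was 71.8 and 81.0. The means of these medians were 71.9 ± 17.5 for Gfi1 and 76.4 ± 6.49 for Lsd1 (SD, n = 2), which differed by -4.52 (two-sided exact permutation test, p = 1), from 12.4 in tumor 39 and -21.5 in tumor 41. With 2 libraries against 2 this test cannot give a p under 0.333, and by tumor pairs none under 0.5. No gene had Gfi1 peaks in both tumors without Lsd1 (0.128% of coding genes did), and none had Lsd1 in both without Gfi1 (0.210%).

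The Gfi1 and Lsd1 peaks mostly overlapped. In tumor 39 the highest TSS peaks of the factors overlapped at 53 of the 56 genes that had both (94.6%), and in tumor 41 at 46 of 51 (90.2%). The shares over coding genes were 96.4% and 97.1%. Their midpoints were a median of 267.5 and 366.5 bp apart, against 162 and 183.5 bp over coding genes, and the peaks at the axon guidance and migration genes were also wider in most lists. Median widths over the 48 genes were 3369 and 1818.5 bp for Gfi1 and 2939 and 3144.5 bp for Lsd1, against 2232, 2209, 2609 and 2530 bp over coding genes bound in all 4 libraries. In the Gfi1 list of tumor 41 alone they were narrower. At 42 of the 48 genes the highest peaks of all 4 lists shared a base (87.5%, against 94.3% of coding genes), and at Sema3f, Sema4b, Sema4d, Plxna1, Plxnd1 and Nrp2 they did not, so that their percentiles are not of a single place.

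Gfi1 ranked higher in tumor 39 and Lsd1 in tumor 41 at most of the 48 genes. Of the 48 genes, 44 had a lower Gfi1 percentile in tumor 41 than in tumor 39 (91.7%, against 79.5% of coding genes and 82.8% of CpG-rich genes without a close coding neighbour). The Lsd1 percentile was higher in tumor 41 at 38 of them (79.2%, against 67.1% and 70.5%). The 4 genes in which Gfi1 was not lower in tumor 41 are Sema3b, Sema6a, Ntn5 and Robo2, named after their values were seen. Over coding genes bound in all 4 libraries the median Gfi1 percentiles were 86.1 and 78.0, so that the gap between tumors was 24.7 points at the 48 genes and 8.03 points in the background. At long coding genes the medians were 86.1 and 74.3. These are ranks in lists of 36836 and 25078 Gfi1 peaks, and whether list length or peak calling plays a part was not tested at single genes. A TSS peak in the Gfi1 list of tumor 39 and the Lsd1 list of tumor 41 alone was found at 8 genes (10.7%, against 2.79% of coding genes and 4.11% of CpG-rich genes without a close coding neighbour). These are Sema5b, Slit1, Slit3, Epha1, Epha6, Cxcl12, Neo1 and Reln. These lists are the longer of each factor, and by the reporting summary their libraries had fewer mapped reads. Tumor, antibody, list length and mapped reads thus cannot be told apart at these genes.

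**Figure D3:**
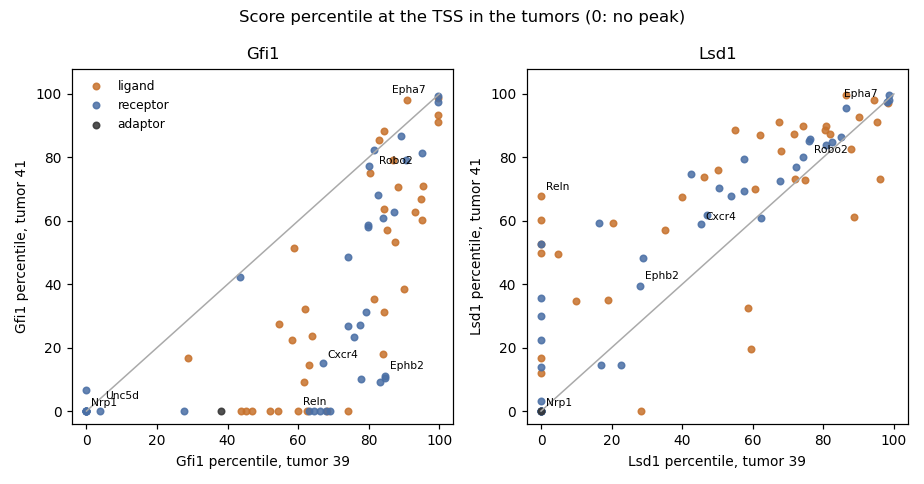
Score percentiles at the TSS in tumor 39 (x axis) and tumor 41 (y axis) are plotted for Gfi1 and for Lsd1, a point per gene, with 0 for no peak and a line where both are equal. Most points lie below the line for Gfi1 and above it for Lsd1, and Epha7 is near the top corner in both panels.

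Peaks were also read inside the genes. A shared stretch is a run of bases of the gene over 1 kb from every annotated TSS of any gene that peaks of all 4 lists cover. Such stretches were found in 34 of the 75 genes (45.3%), against 25.3% of coding genes, 39.1% of CpG-rich genes and 34.8% of long genes. The 75 genes held 90 stretches, 6.61 per Mb of gene, against 9.82 per Mb over coding genes and 5.95 per Mb over long genes. Peaks of all 4 lists covered 1.31% of the summed gene length, the parts near TSSs included, against 2.39% and 1.21%. The stretches were 7 to 8503 bp long with a median of 869.5 bp, and 8 were 50 bp or shorter. The middle of 76 (84.4%) lay in an intron, of 9 in a coding exon and of 5 in an exon outside the coding sequence. Only 32 stretches, in 15 of the 75 genes, were made of 4 peaks that all lay wholly over 1 kb from TSSs, and in the others at least 1 of the 4 peaks came nearer to a TSS. A stretch covered by 4 peaks wholly away from TSSs was found in 20% of the 75 genes, 7.68% of coding genes and 11.2% of CpG-rich genes. Among the 5352 long genes 963 had one, a share only slightly below that of the 75 genes. Of the 34 genes 32 were bound at the TSS in all 4 libraries, the exceptions being Efna2 and Slit1.

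Plxnd1 and Sema4b held the most stretches, 8 each. Plxna1 held 7, and Nrp2 and Sema4d 6 each, and these genes together held 35 of the 90 (38.9%). The same share was not worked out for coding genes. Stretches are not separate peaks, since the parts near TSSs and gaps between peaks divide wide peaks. At Plxnd1 the stretches 32.2, 36.6 and 39.9 kb from the most 5′ start were parts of the same 4 peaks. Peaks of all 4 lists covered 69.4% of the 40.2 kb of Plxnd1, 24.1% of Plxna1, 22.3% of Sema4b, 7.03% of Sema4d and 6.39% of Nrp2. The longest stretch, 8503 bp, was in the first part of Plxnd1. Among compact genes, Ntn3 was covered over 87.2% of its length, Efna3 over 78.6% and Efna1 over 48.0%. The parts over 1 kb from TSSs made up 14.9%, 33.7% and 21.4% of these genes. Epha7, with the highest TSS percentiles, held 0 shared stretches in 154 kb. Nrp1, Dcc, Plxnb3 and Robo4 had 0 stretches inside in every single list. The same was true of some genes with TSS peaks, such as Sema6d and Epha6, which span 578 and 952 kb.

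**Figure D4:**
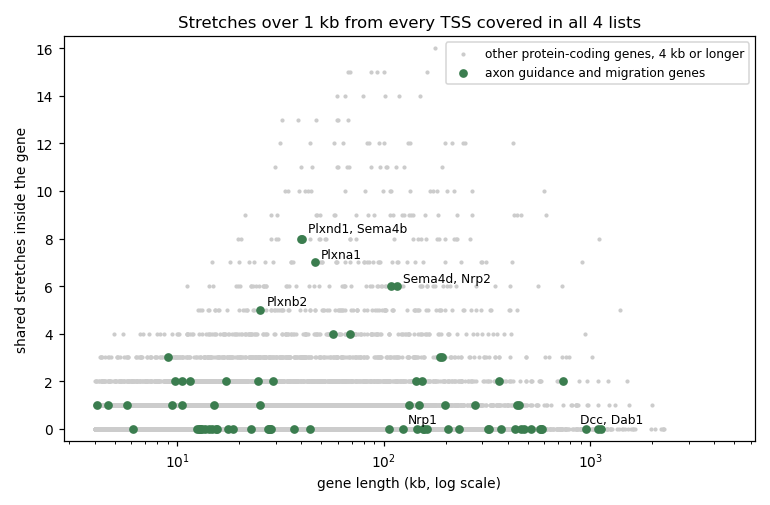
Gene length in kb on a log axis is plotted against the number of stretches inside the gene covered in all 4 lists, for the 75 genes in green and for other coding genes of at least 4 kb in grey, of which 20 lie above the axis. Plxnd1 and Sema4b reach 8 at about 40 kb, whereas Dcc and Dab1, over 1000 kb long, have 0.

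Short windows at the middle of the stretches with the highest percentiles are shown because every list placed a peak there, including the Efna1 intron, which all lists ranked at 97.0 or above. Coordinates and bases are those of GRCm38.p6 (mm10), on the strand of the gene, with AATC on either strand in capitals. The place named first is that of the middle base, and a window can run past the end of that exon or intron. The stretch of Sema6a, which ranked above that of Epha4, is not shown. Sema4b was added after its values were seen, as the highest with all 4 peaks wholly away from TSSs.
Efna1, intron, chr3:89277585-89277685, minus strand: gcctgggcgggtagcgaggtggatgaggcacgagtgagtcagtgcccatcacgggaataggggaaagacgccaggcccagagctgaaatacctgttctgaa
Ntn3, intron and adjoining exon, chr17:24206937-24207037, minus strand: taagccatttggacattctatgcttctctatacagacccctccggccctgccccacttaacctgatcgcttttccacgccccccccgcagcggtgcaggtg
Sema4c, coding exon, chr1:36555889-36555989, minus strand: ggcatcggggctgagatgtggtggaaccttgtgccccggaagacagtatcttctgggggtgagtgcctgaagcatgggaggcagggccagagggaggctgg
Epha4, intron, chr1:77513642-77513742, minus strand: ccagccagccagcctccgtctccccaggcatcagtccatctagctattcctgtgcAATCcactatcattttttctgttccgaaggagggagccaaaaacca
Nrp2, intron, chr1:62706708-62706808, plus strand: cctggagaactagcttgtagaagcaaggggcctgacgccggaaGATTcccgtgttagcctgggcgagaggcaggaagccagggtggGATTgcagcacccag
Plxnb1, intron, chr9:109099937-109100037, plus strand: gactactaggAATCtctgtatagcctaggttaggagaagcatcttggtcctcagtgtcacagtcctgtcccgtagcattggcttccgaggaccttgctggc
Sema4b, intron, chr7:80192448-80192548, plus strand: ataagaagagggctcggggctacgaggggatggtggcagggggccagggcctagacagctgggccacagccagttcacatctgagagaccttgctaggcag

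Nrp2 held 2 AATC matches, Epha4 and Plxnb1 1 each, and the others 0. Over all 90 stretches 33.3% of the windows held AATC, against 36.7% of the 10550 windows inside coding genes. AAATCA was in 3.33% and 4.77%, and CACGTG in 3.33% and 2.26%. The windows of the axon guidance and migration genes were thus close to those of coding genes in these letters.

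**Figure D5:**
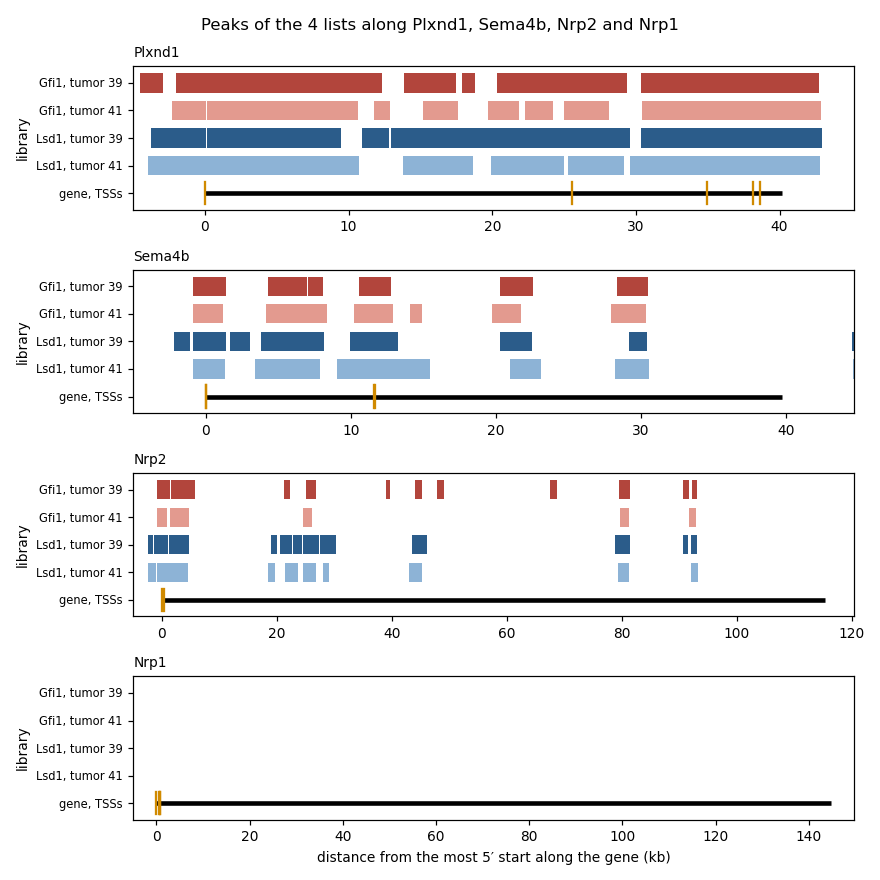
Peaks of the 4 lists are drawn as bars along Plxnd1, Sema4b, Nrp2 and Nrp1, by distance in kb from the most 5′ start, with the gene in black and its TSSs in orange. Bars fill most of Plxnd1 in all lists, stand in separate groups along Sema4b and Nrp2, and are absent at Nrp1.

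Other genes of the same pathways were counted in the same way, 63 coreceptors, adaptors, kinases and cytoskeletal regulators. A CpG-rich start was present at 53 of them (84.1%). A TSS peak in all 4 libraries was present at 44 (69.8%, against 53.1% of coding genes and 84.6% of CpG-rich genes). No list had one at 5 (7.94%, against 33.6% and 2.64%), namely Dcx, Dscam, Chl1, Chn2 and Pak3. The upper 20% in both tumors held 20 for Gfi1 (31.7%) and 23 for Lsd1 (36.5%), where the 75 genes had 14.7% and 21.3%. These shares were 23.3% and 26.1% for coding genes, and 41.2% and 45.2% for CpG-rich genes. A shared stretch inside was found in 30 (47.6%, against 25.3% of coding genes and 39.1% of CpG-rich genes). Rgmb, a ligand of neogenin, had 99.7 and 99.9 for Gfi1 and 97.7 and 99.8 for Lsd1, and Pafah1b1, the migration factor Lis1, had 99.7 and 97.3 for Gfi1 and 97.5 and 99.8 for Lsd1. Cdk5, the kinase of neuronal migration, had 97.1 and 97.0 for Gfi1 and 99.0 and 99.8 for Lsd1, at a start region that it shares with Slc4a2. Median percentiles of the 44 bound genes were 86.4, 79.5, 81.7 and 87.9, against 86.1, 78.0, 81.2 and 84.0 over coding genes. Those of CpG-rich genes were 87.8, 80.3, 82.8 and 85.7, so that the 44 were above these only for Lsd1 in tumor 41. The 48 ligands and receptors were below both backgrounds in all lists.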

How the data were processed

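Chromatin of MG tumors 39 and 41 was immunoprecipitated for Gfi1 and Lsd1 in 4 libraries, paired by tumor. The authors aligned reads to mm10 with BWA 0.6.2, merged files and removed duplicates with Picard, ran FastQC and called peaks per library with MACS against input. The deposited lists hold positions with a score, whose definition is not given in the sources used here, so the score was used only as a percentile within its list. The supplementary peak tables and input reads were not analysed here. By the reporting summary, the libraries with the shorter lists had more mapped reads.

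TSSs and genes came from GENCODE M21 on GRCm38, with 0 peaks and 0 genes beyond a chromosome end. A TSS peak lay within 1 kb of any TSS. Named were the 7 listed genes, the highest and lowest of each of 14 families by mean percentile, the 10 highest genes, genes bound by a single factor in both tumors, and the 5 with the most shared stretches. Others named are members of counts or were chosen after their values were seen. Genes and lists were chosen with earlier results of these data known. Counts and medians are descriptive, and 2 differences were tested by exact permutation over libraries. Replicates are separate tumors. Alternatives varied the score cutoff, TSS window, list length, distance from TSSs and libraries. Steps were tested on simulated data and used Python 3.11.15, numpy 2.4.6, pandas 2.3.3, scipy 1.17.1, pysam 0.24.0, matplotlib 3.10.9 and samtools 1.23.1.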

Additional observations from a re-analysis of the deposited data

Results flagged for a closer look

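The difference between Gfi1 and Lsd1 went in opposite directions in the tumors. The Gfi1 minus Lsd1 difference in genes with a TSS peak was 12 in tumor 39 and -15 in tumor 41. For the median percentile of the 48 genes bound in all 4 libraries it was 12.4 in tumor 39 and -21.5 in tumor 41. Each tumor gave 1 pair of libraries, and the difference between the tumors was not tested. With 2 libraries per factor, single libraries could not be examined for standing apart.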

How the results depend on the processing

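Of 87 alternative values, 66 kept their direction or stayed close, 15 moved and 6 reversed. With only the upper 20% of each list, the Gfi1 lists bound 33 and 11 genes at a TSS and the Lsd1 lists 18 and 24, and 8 genes had a peak in all 4 libraries. With the upper 50%, the Gfi1 count in tumor 41 was 29 and the count in all 4 libraries 28. The 11 genes with an upper-20% Gfi1 peak in both tumors became 6 with a cutoff of the upper 10%, 24 with the upper 40%, and 11 to 33 when a library was left out, 33 without the Gfi1 library of tumor 41 (replicate 2). The 16 for Lsd1 became 7, 32 and, with lists cut to 25078 peaks each, 10, and 18 to 24 with a library left out. The genes with a shared stretch inside fell from 34 to 15 at over 5 kb from TSSs and to 15 with peaks wholly away from TSSs, an alternative chosen after seeing the data. The cause was not tested, except that a stricter cutoff keeps fewer peaks.

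The Gfi1 minus Lsd1 difference in the count was 3 with lists of equal length, 1 at the upper 20% and -9.5 to 6.5 with a library left out. For the median percentile it was -16.9 to 7.85 with a library left out. Paired by tumor, with the tumor as a replicate block, the differences were -1.5 and -4.52, with p = 1 by exact sign flips. The lists carry no reads, so that the depth behind each peak is unknown.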
